A study of Homo sapiens with 8 samples.

Results

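The genes described here make or read chemical marks on chromatin or move nucleosomes. They were taken from the count table by gene symbol: every row whose symbol belongs to the KMT, KDM, HDAC, SIRT, DNMT, TET, EZH, SETD, PRDM, CHD, CBX, ARID or SMARC series, with KDM3B left out. The rule found 119 genes of the 30434 in the table, of which 115 are genes of the families themselves and 4 have pseudogene-type symbols. Their RNA was sequenced in SKBR3, an established line of human breast cancer cells that carries an amplified ERBB2 receptor gene. The 4 control libraries carry the genotype label WT, and the 4 FOXA1 knockdown libraries came from a stable SKBR3 line that lentiviruses had equipped with short hairpin RNAs against FOXA1. Both were grown in the same DMEM with serum. The labels do not say whether the controls carried a control vector, whether the knockdown line was a single clone, or whether replicates were separate cultures, so p-values measure the spread between these libraries, which may be technical. Values per library are given in the order of the replicate numbers.

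Chromatin modifiers work as writers, erasers, readers and movers. DNA methyltransferases place methyl groups on cytosines and TET enzymes oxidise them. Many KMT, SETD and EZH proteins methylate lysines of histones and other proteins, KDM proteins remove lysine methylation, and HDAC and SIRT proteins remove acetyl groups. CBX proteins bind methylated histone H3, in heterochromatin or in Polycomb repressive complex 1. Most CHD and SMARC proteins are ATPases or subunits of nucleosome remodelling complexes, among them SWI/SNF, to which some ARID proteins also belong. FOXA1, the targeted gene, encodes a pioneer transcription factor of luminal breast cells that binds DNA in closed chromatin.

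Library totals ran from 19087878 to 23786684 counts. FOXA1 itself (GENCODE 29, GRCh38: chromosome 14, 37589984 to 37596059, minus strand) measured 191.4, 192.4, 193.3 and 189.5 CPM across the control libraries and 3.78, 3.56, 4.23 and 4.26 CPM across the knockdown libraries. It kept 2.06% of its control level (log2 fold change -5.6, adjusted p = 3.19e-30 in edgeR's quasi-likelihood test). CPM is the count scaled to 1000000 per library after TMM scaling. Control replicate 3 was set off from its group, with a score of -40.1 on principal component 2 where the remaining controls scored 9.53 to 16.3. The luminal epithelial markers were present, with a summed level of 16297 to 18167 CPM in control and 11016 to 11883 CPM in knockdown. Of these 7 markers 5 were called higher and 2 lower, with a median log2 fold change of 0.31. ERBB2 went from 7308 to 1340 CPM and KRT19 from 2645 to 723 CPM, while GATA3 rose from a low 4.29 to 35.9 CPM. Fibroblast, leukocyte and endothelial markers summed to at most 7.66, 5.82 and 22.4 CPM in any library. CDH5 made up most of the endothelial sum, at 16.1 CPM in control, and PTPRC, DCN, COL1A2 and PECAM1 averaged no more than 2.5 counts. In each of these lists 1 marker was called higher and 1 lower. From control to knockdown PDGFRB went from 0.41 to 2.83, CD14 from 0.181 to 0.533 and CDH5 from 16.1 to 20.1 CPM. CD68 went from 4.94 to 0.589, VWF from 5.22 to 0.845 and COL1A1 from 5.38 to 4.33 CPM. Of the 12 proliferation markers, 12 were called higher in knockdown, with a summed level of 2492 to 2696 CPM in control and 3674 to 3811 CPM in knockdown. The part of proliferation in the changes below was not tested. In RNA from bulk cultures, fewer cells that express a gene and less RNA per cell cannot be told apart.

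The first question was how the chromatin genes as a group responded to loss of FOXA1. Of the 119 genes, 106 had enough counts to be tested and 91 of these (85.8%) were called at an adjusted p under 0.05, 57 higher and 34 lower in knockdown. Over all 16430 genes tested the called share was 77.1%, with 39.4% higher and 37.7% lower. Above a mean of 50 counts per library the called shares lay closer, 85.7% for 98 chromatin genes and 82.6% for 12420 genes in all. The directions did not: 55.1% of these chromatin genes were higher and 30.6% lower, against 41.0% and 41.6% of all genes at that cut. Changes of at least 2-fold made up 18.4% against 23.5% there. A change of at least 2-fold was called for 24 of the 106 (22.6%), 15 higher and 9 lower, against a background of 28.3%, made up of 14.9% higher and 13.4% lower. The median log2 fold change was 0.17 against 0.02 for all genes tested, and the median of its absolute value 0.47 against 0.51. Control and knockdown CPM were fully separated for 84 of the 106, or 79.2%, and for 72.0% of all genes tested. Full separation corresponds to p = 0.0286 in a two-sided exact permutation test, the lowest value possible with 4 libraries a side. The counts by role below cover few genes each and are to be read against these shares of all genes tested.

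**Figure D1:**
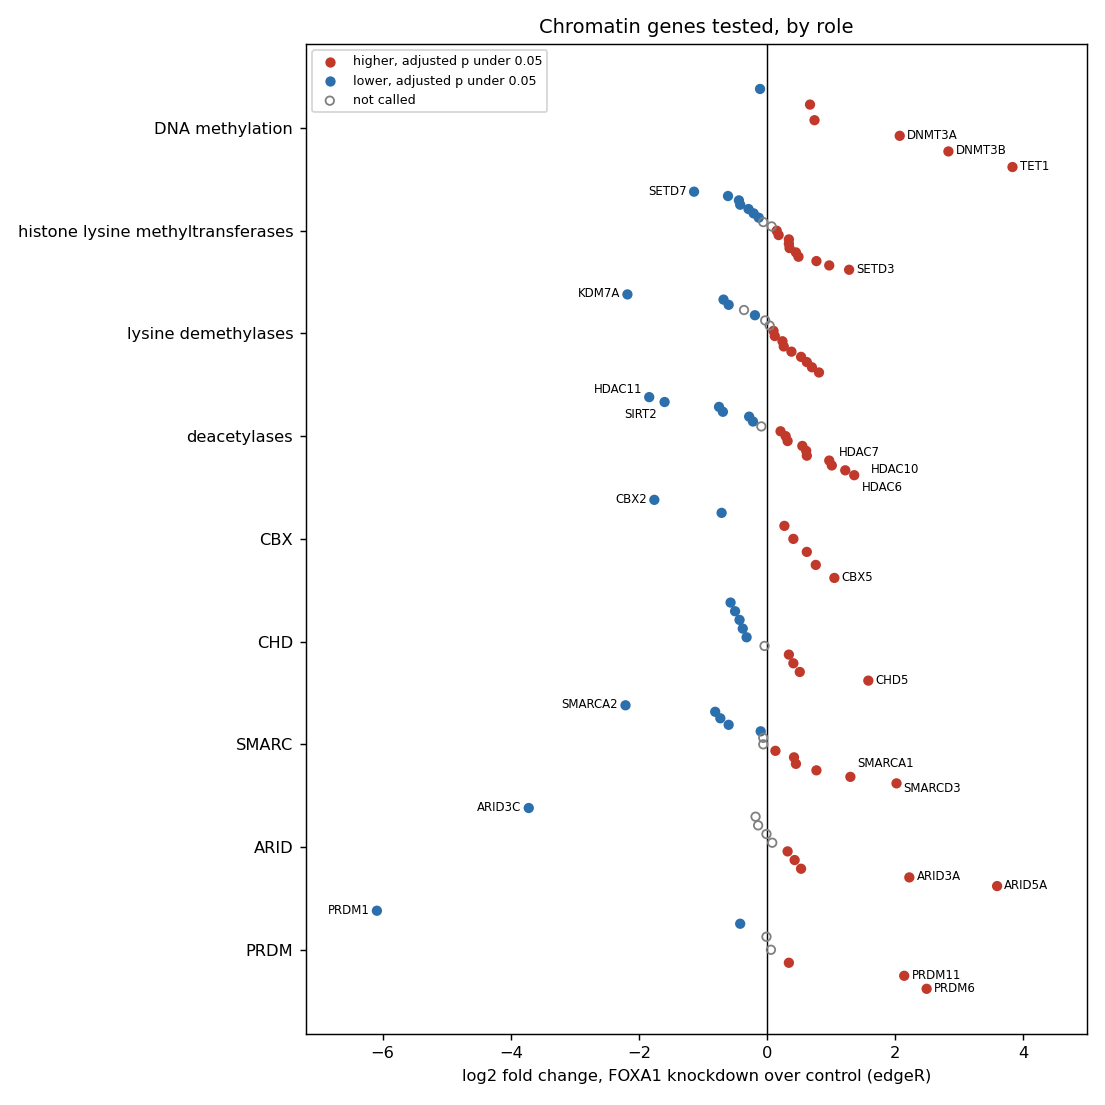
Log2 fold change of 105 of the chromatin genes tested, FOXA1 knockdown over control, in rows by role. Each point is a gene, filled where the adjusted p was under 0.05, and genes with a change of at least 2-fold are named; TET1 lies farthest to the right at 3.83, and PRDM1, farthest to the left, is drawn at its fitted value although its knockdown libraries lie under the floor of 3 counts, so its place is no measured size.

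Among the roles, DNA methylation had the highest median log2 fold change, 1.41. Of the 7 genes, 6 were tested and all 6 were called, 5 of them higher in knockdown. The de novo methyltransferases DNMT3A and DNMT3B and the oxidase TET1 rose by more than 4-fold, TET2 and TET3 by less than 2-fold, and the maintenance methyltransferase DNMT1 stayed near its control level. The sequence around the start of DNMT3A, DNMT3B, TET1 and TET2 is shown because cytosines followed by guanine are the substrate of these enzymes and because a forkhead factor was removed. Each run holds 250 bases before and 50 after the RefSeq gene start on GRCh38.p14, written 5′ to 3′ on the gene's strand, with the forkhead letters TGTTTAC or TGTTTGC, or their reverse complements GTAAACA and GCAAACA, in capitals.
DNMT3A, chr2:25342434-25342733, minus strand: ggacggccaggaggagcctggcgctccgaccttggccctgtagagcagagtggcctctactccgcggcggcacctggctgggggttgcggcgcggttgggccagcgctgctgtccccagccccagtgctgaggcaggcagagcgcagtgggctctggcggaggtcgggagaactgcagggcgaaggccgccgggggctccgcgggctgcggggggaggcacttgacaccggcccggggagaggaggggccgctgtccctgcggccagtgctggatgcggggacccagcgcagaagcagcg
DNMT3B, chr20:32779602-32779901, plus strand: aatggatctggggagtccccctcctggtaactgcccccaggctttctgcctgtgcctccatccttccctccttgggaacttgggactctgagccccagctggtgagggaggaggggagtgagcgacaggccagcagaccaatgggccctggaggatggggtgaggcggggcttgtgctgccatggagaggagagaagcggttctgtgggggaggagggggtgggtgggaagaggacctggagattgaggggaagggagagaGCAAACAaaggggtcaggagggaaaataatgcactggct
TET1, chr10:68560087-68560386, plus strand: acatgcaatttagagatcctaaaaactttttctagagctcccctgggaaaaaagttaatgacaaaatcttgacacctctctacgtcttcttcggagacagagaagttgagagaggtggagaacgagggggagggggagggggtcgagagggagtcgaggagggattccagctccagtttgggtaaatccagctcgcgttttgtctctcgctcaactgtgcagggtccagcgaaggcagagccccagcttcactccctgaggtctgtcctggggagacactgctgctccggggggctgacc
TET2, chr4:105145625-105145924, plus strand: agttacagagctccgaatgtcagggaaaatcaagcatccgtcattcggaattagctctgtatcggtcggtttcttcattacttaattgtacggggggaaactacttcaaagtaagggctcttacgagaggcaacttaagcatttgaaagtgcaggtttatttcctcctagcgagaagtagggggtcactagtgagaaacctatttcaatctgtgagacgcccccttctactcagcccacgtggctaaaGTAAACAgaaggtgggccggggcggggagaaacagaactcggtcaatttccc
The DNMT3A window holds 26 CpG dinucleotides and a GC content of 74.3%, and the TET1 window 10 and 54.3%. The TET1 start used here lies upstream of the GENCODE 29 gene. The DNMT3B window, which lies inside the GENCODE gene rather than at its outermost start, holds 3 CpG dinucleotides and 1 TGTTTGC match. The TET2 window holds 13 CpG dinucleotides and 1 TGTTTAC match that spans the start. TGTTTAC on either strand was found in 2 of the 97 chromatin genes whose promoter could be matched by symbol (2.06%), TET2 and EZH1, in 2.26% of 11267 promoters of tested genes and in 3.42% of all 35116 promoters. For TGTTTGC the shares were 4.12%, 2.7% and 3.89%. These are matches of letters and say nothing about binding.

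DNMT3B (chromosome 20, 32762385 to 32809356, plus strand) measured 14.4, 14.1, 15.9 and 16.5 CPM across the control libraries and 105.5, 113, 102.9 and 112.3 CPM across the knockdown libraries. The lowest knockdown library stood above every control library, and the mean rose 7.12-fold, from a control mean of 15.2 ± 1.18 CPM to a knockdown mean of 108.4 ± 5.02 CPM (SD, n = 4 per group; log2 fold change 2.83, SE 0.0648, adjusted p = 2.9e-24). DNMT3A (chromosome 2, 25227855 to 25342590, minus strand), the other de novo enzyme, measured 30.8, 33.9, 34.7 and 31.9 CPM across the control libraries and 136.8, 141.1, 136.3 and 135.9 CPM across the knockdown libraries. Its groups were as clearly apart, with a 4.19-fold rise (log2 fold change 2.07, SE 0.0411, adjusted p = 1.58e-23). TET1 (chromosome 10, 68560656 to 68694482, plus strand), which starts the oxidation of methylated cytosine, was near silent in control, with 1.69, 1.54, 1.38 and 1.72 CPM in the controls, against 21, 24.8, 20.9 and 23.7 CPM in the knockdown libraries. That is a 14.3-fold rise and the largest fitted increase among the 106 genes (log2 fold change 3.83, SE 0.0961, adjusted p = 2.66e-21). TET2, which oxidises methylated cytosine too, rose 1.59-fold (log2 fold change 0.67, SE 0.0712) and TET3 rose 1.68-fold (log2 fold change 0.74, SE 0.0535), both without overlap of the groups.

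DNMT1 (chromosome 19, 10133345 to 10231286, minus strand), which copies methylation after replication, measured 168.8, 172, 170.1 and 156.9 CPM across the control libraries and 152.1, 161.4, 148 and 158.4 CPM across the knockdown libraries. Here the groups overlapped. The mean went from a control mean of 167 ± 6.8 CPM to a knockdown mean of 155 ± 6.03 CPM (SD, n = 4 per group), a call lower in the main test (log2 fold change -0.11, adjusted p = 0.0141 by edgeR) that other settings did not keep. The log2 fold change was -0.05 with upper-quartile scaling (adjusted p = 0.273) and -0.02 with library size only (adjusted p = 0.591), and it was -0.09 without control replicate 2 (adjusted p = 0.0551), -0.09 without knockdown replicate 1 (adjusted p = 0.0551) and -0.08 without knockdown replicate 3 (adjusted p = 0.0682). With the median of its 50 nearest genes subtracted DNMT1 was called higher, at 0.17 (adjusted p = 0.000392). UHRF1, the partner that brings DNMT1 to newly copied DNA, went from a control mean of 78.2 ± 0.955 CPM to a knockdown mean of 38.3 ± 0.685 CPM (SD, n = 4 per group) and was called lower (log2 fold change -1.03, SE 0.0157, adjusted p = 1.64e-17). DNMT3L, the catalytically inactive relative of DNMT3A and DNMT3B, had 0 counts in every control library and 5, 8, 3 and 3 in knockdown replicates 1 to 4. It was below the filter and not tested. Against a floor of 3 counts per library its knockdown mean was at least 1.46-fold higher, though knockdown replicates 3 and 4 lay at that floor.

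Per kilobase of annotated exon, where levels of different genes can be set side by side, the order within this role changed. In control DNMT1 was highest at 17 CPM per kb, followed by TET3 at 7.49, TET2 at 4.29, DNMT3B at 3.29, DNMT3A at 2.73 and TET1 at 0.171. In knockdown DNMT3B led at 23.4 CPM per kb, above DNMT1 at 15.8, TET3 at 12.6, DNMT3A at 11.4, TET2 at 6.82 and TET1 at 2.43. The lengths are the union of all GENCODE 29 exons of a gene, which is at least as long as any single transcript. They were 9796 bp for DNMT1 and 4630 bp for DNMT3B. Before division by length DNMT1 stood above DNMT3B in knockdown, at 155 against 108.4 CPM, so the order of these 2 genes rests on the lengths used.

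**Figure D2:**
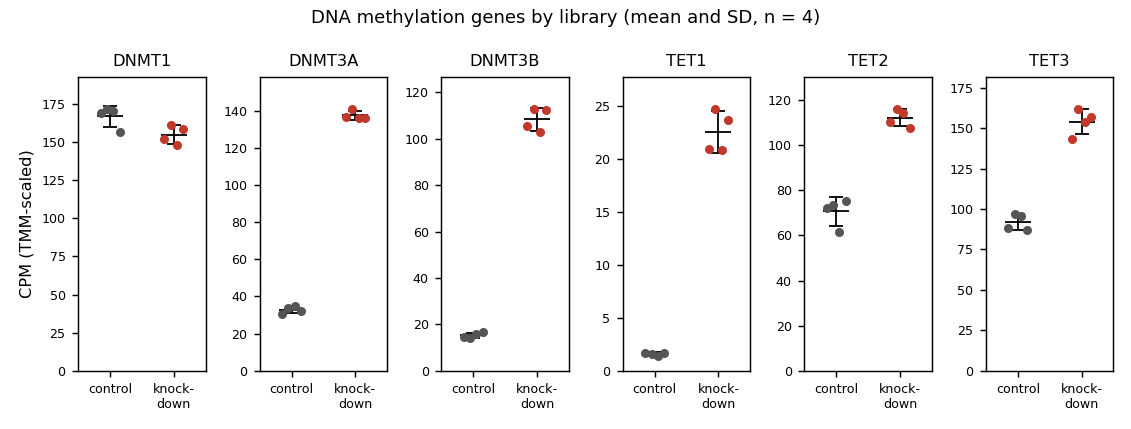
CPM of the 6 tested DNA methylation genes in each library, 4 control and 4 knockdown, with mean and SD; each panel has its own axis from 0. DNMT3A, DNMT3B, TET1, TET2 and TET3 show knockdown points above every control point, and the DNMT1 points overlap.

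Among the 19 genes of the KMT, SETD and EZH series, grouped here by symbol, 17 were called, 10 higher and 7 lower, and 2 of them changed by at least 2-fold. SETD3 (chromosome 14, 99397746 to 99480889, minus strand), which methylates a histidine of actin, measured 66.6, 63.4, 64.1 and 64.6 CPM across the control libraries and 158.2, 150.6, 157.2 and 160.9 CPM across the knockdown libraries. SETD7 (chromosome 4, 139495941 to 139606699, minus strand), which methylates histone H3 and other proteins, measured 264.3, 268.6, 259 and 268 CPM across the control libraries and 118.2, 124, 119.7 and 117.6 CPM across the knockdown libraries. The first gene rose 2.42-fold (log2 fold change 1.28, SE 0.0255, adjusted p = 2.07e-20) and the second fell to 45.3% of its control level (log2 fold change -1.14, SE 0.0211, adjusted p = 2.29e-20), each without overlap. KMT5A (chromosome 12, 123383773 to 123409358, plus strand), the enzyme that places the first methyl group on a lysine of histone H4, measured 44, 43.1, 44.7 and 42.1 CPM across the control libraries and 84.5, 83.7, 86.8 and 86.8 CPM across the knockdown libraries and rose 1.96-fold (log2 fold change 0.97, SE 0.0228, adjusted p = 4.73e-17). SETD9 (chromosome 5, 56909260 to 56925532, plus strand) was a low gene, with 4.53, 5.04, 3.7 and 3.58 CPM in the controls, against 3.1, 2.42, 2.95 and 2.54 CPM in the knockdown libraries. It was called lower (log2 fold change -0.61, SE 0.145, adjusted p = 0.000332), again with all knockdown libraries under the lowest control.

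EZH2 (chromosome 7, 148807383 to 148884321, minus strand), the catalytic subunit of Polycomb repressive complex 2, measured 74.6, 74.9, 71.6 and 79.9 CPM across the control libraries and 96.2, 92.8, 97.4 and 97.3 CPM across the knockdown libraries. Its paralogue EZH1 went from a control mean of 11.8 ± 0.759 CPM to a knockdown mean of 16.6 ± 0.604 CPM (SD, n = 4 per group). Both were called higher by a modest amount, EZH2 at 0.35 (SE 0.0367, adjusted p = 2.44e-08) and EZH1 at 0.49 (SE 0.0536, adjusted p = 3.94e-07) on the log2 scale. KMT2C (chromosome 7, 152134922 to 152436005, minus strand), a methyltransferase of enhancers that has been described as a partner of FOXA1, measured 175.2, 184.8, 165.8 and 182.5 CPM across the control libraries and 120.8, 141.6, 131.3 and 128.9 CPM across the knockdown libraries. It was called lower (log2 fold change -0.44, SE 0.059, adjusted p = 9.23e-09), with every knockdown library under every control. KMT2D, the other enhancer enzyme of this pair, went from a control mean of 165.5 ± 7.7 CPM to a knockdown mean of 173.3 ± 14.2 CPM (SD, n = 4 per group) and was not called (adjusted p = 0.256). Without knockdown replicate 1 KMT2D was called higher, at 0.12 (adjusted p = 0.0171), and with the neighbours' shift removed it was called lower, at -0.25 (adjusted p = 0.000418). The further increases were in KMT5C, SETD6, KMT2B, SETD1A and SETD5, with log2 fold changes between 0.18 and 0.77, and the further decreases in KMT2A, KMT2E and KMT5B, between -0.42 and -0.21. With the neighbours' shift removed KMT2B was called lower, at -0.22 (adjusted p = 4.99e-05), KMT5B was called higher, at 0.31 (adjusted p = 5.78e-06), and KMT2A was not called, at -0.07 (adjusted p = 0.226). SETD1B and SETD4, called at -0.13 and 0.15, are taken up with the small changes. SETD6 shares 1086 bp of exon with the much more abundant CNOT1 on the opposite strand, so its value is uncertain.

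Of the 16 lysine demethylases 13 were called, 9 higher and 4 lower, and KDM7A was the single one past 2-fold. KDM7A (chromosome 7, 140084746 to 140177035, minus strand), which removes repressive methylation from histone H3, measured 39.7, 42.4, 34.1 and 43.5 CPM across the control libraries and 8.29, 9.09, 9.17 and 8.65 CPM across the knockdown libraries. The knockdown libraries kept 22% of the control level (log2 fold change -2.18, SE 0.0858, adjusted p = 1.73e-17). KDM4B (chromosome 19, 4969113 to 5153595, plus strand), known as a cofactor of the oestrogen receptor, measured 45.9, 41.7, 45.4 and 41.2 CPM across the control libraries and 26.4, 27.1, 26.8 and 28.3 CPM across the knockdown libraries and was also called lower (log2 fold change -0.68, SE 0.0456, adjusted p = 6.13e-12). Its relative KDM4C was called lower at -0.6 (SE 0.0494), but with the neighbours' shift removed KDM4C was at -0.09 and no longer called (adjusted p = 0.163). KDM2A, an eraser of histone H3 methylation at CpG islands, was called lower at -0.19 (SE 0.0292), a direction that turned with the neighbours' shift removed, to 0.33 (adjusted p = 4.87e-09). In both KDM7A and KDM4B the groups did not overlap.

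The flavin-dependent demethylases rose together. KDM1B (chromosome 6, 18155329 to 18223853, plus strand) measured 51.8, 53.2, 51.5 and 53.5 CPM across the control libraries and 92.6, 91.6, 90.8 and 92.3 CPM across the knockdown libraries, a 1.75-fold increase (log2 fold change 0.81, SE 0.015, adjusted p = 7.86e-16). KDM1A, the subunit of the CoREST complex also called LSD1, went from a control mean of 92.6 ± 1.78 CPM to a knockdown mean of 133.9 ± 3.32 CPM (SD, n = 4 per group; log2 fold change 0.53, SE 0.0225, adjusted p = 9.43e-13). KDM8 (chromosome 16, 27203495 to 27221768, plus strand), a low gene, measured 3.98, 3.4, 3.61 and 4.05 CPM in the controls, against 6.12, 6.06, 5.6 and 6.71 CPM in the knockdown libraries, without overlap (log2 fold change 0.7, SE 0.0793, adjusted p = 2.22e-06). KDM5B, a demethylase of promoter methylation that is high in luminal breast cancer, rose 1.54-fold (log2 fold change 0.62, SE 0.0283), and its relative KDM5A 1.3-fold (log2 fold change 0.38, SE 0.0528). KDM2B, a CpG-binding partner of Polycomb, was higher at 0.26 and KDM6B, which removes the Polycomb mark, at 0.24 (with the neighbours' shift removed 0.08, adjusted p = 0.137). KDM6A, the other eraser of the Polycomb mark, went from a control mean of 46 ± 2.26 CPM to a knockdown mean of 44.9 ± 2.24 CPM (SD, n = 4 per group) and was not called (adjusted p = 0.552). KDM3A at 0.04 and the low gene KDM4D at -0.36 (-0.22 without control replicate 2) were not called either (adjusted p = 0.535 and 0.161).

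All 11 HDAC genes were called, 8 higher and 3 lower, and 5 of the 6 tested SIRT genes, 2 higher and 3 lower. Of all genes tested 77.1% were called. HDAC11 (chromosome 3, 13479724 to 13506424, plus strand), the most divergent member of the family, measured 31.2, 30.3, 34.8 and 28.5 CPM across the control libraries and 9.14, 9.01, 6.98 and 9.53 CPM across the knockdown libraries. SIRT2 (chromosome 19, 38878555 to 38899862, minus strand), a mainly cytoplasmic deacetylase of tubulin, measured 36.7, 37.5, 40.5 and 35.6 CPM across the control libraries and 12.8, 11.3, 12.1 and 13.1 CPM across the knockdown libraries. These were the deepest falls of the role, to 27.8% and 32.9% of control (log2 fold change -1.84, SE 0.118, adjusted p = 5.73e-15 for HDAC11; log2 fold change -1.6, SE 0.0608, adjusted p = 4.24e-18 for SIRT2). HDAC6 (chromosome X, 48801377 to 48824982, plus strand), the other tubulin deacetylase, moved the other way, with 10.8, 10.9, 12.5 and 10.0 CPM in the controls, against 28, 27.8, 28.3 and 29.2 CPM in the knockdown libraries. It rose 2.56-fold (log2 fold change 1.36, SE 0.0698, adjusted p = 6.75e-16). HDAC10 (chromosome 22, 50245183 to 50251405, minus strand), a polyamine deacetylase, measured 1.74, 1.68, 1.9 and 1.72 CPM in the controls, against 3.87, 4.18, 3.87 and 4.49 CPM in the knockdown libraries and was 2.33-fold higher (log2 fold change 1.22, SE 0.0638, adjusted p = 1.16e-08). Its exons share 2763 bp with MAPK12 on the same strand, so the counts of HDAC10 are uncertain.

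HDAC1 (chromosome 1, 32292086 to 32333635, plus strand), the catalytic subunit shared by the NuRD, SIN3 and CoREST complexes, measured 105.8, 101.7, 111.4 and 102.7 CPM across the control libraries and 158.2, 161.4, 160.0 and 167.2 CPM across the knockdown libraries. It rose 1.53-fold without overlap (log2 fold change 0.62, SE 0.034, adjusted p = 9.08e-14), and its neighbours on chromosome 1 had a median of 0.4; with that shift removed HDAC1 was at 0.22 (adjusted p = 8.59e-06). HDAC2, its partner subunit, rose 1.25-fold and HDAC3, the deacetylase of the NCOR complexes, 1.46-fold. Of the class IIa genes, which act as corepressor scaffolds, HDAC4, HDAC5 and HDAC7 were called higher, with log2 fold changes of 0.29, 0.61 and 1.01. HDAC9, a low gene of the same class, was called lower at -0.75 (adjusted p = 0.0351 by edgeR) and is taken up with the small changes. HDAC8 was called lower at -0.69 (SE 0.066). SIRT1, the nuclear deacetylase that depends on NAD, went from a control mean of 27.1 ± 0.787 CPM to a knockdown mean of 53 ± 1.65 CPM (SD, n = 4 per group; log2 fold change 0.97, SE 0.0307, adjusted p = 9.1e-16). SIRT3, the mitochondrial deacetylase, was called lower at -0.22 and SIRT6 at -0.28, yet with the neighbours' shift removed SIRT3 was called higher, at 0.3 (adjusted p = 0.000446), and SIRT6 was at 0.02 (adjusted p = 0.826). SIRT3 also shares 316 bp of exon with the more abundant PSMD13 on the opposite strand.

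The CBX genes moved in both directions, and 7 of them are described. CBX2 and CBX8, chromodomain subunits of Polycomb repressive complex 1 encoded on chromosome 17, fell, whereas the Polycomb genes CBX6 and CBX7 on chromosome 22 and the heterochromatin genes CBX1, CBX3 and CBX5 rose. These 7 were called and none overlapped between groups, where 77.1% of all genes tested were called and 72.0% did not overlap. CBX2 (chromosome 17, 79778132 to 79787983, plus strand) measured 411.9, 392.8, 428.8 and 392.7 CPM across the control libraries and 119.2, 118.8, 115 and 125.8 CPM across the knockdown libraries. The knockdown libraries held 29.4% of the control level (log2 fold change -1.76, SE 0.0406, adjusted p = 2.88e-23). CBX8 (chromosome 17, 79792132 to 79801683, minus strand) fell less, from a control mean of 33.2 ± 1.8 CPM to a knockdown mean of 20.4 ± 1.04 CPM (SD, n = 4 per group; log2 fold change -0.71, SE 0.0529, adjusted p = 1.95e-11).

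The 50 genes nearest to CBX2, and those nearest to CBX8, had a median log2 fold change of -0.44. With that shift removed the log2 fold changes were -1.32 for CBX2 and -0.27 for CBX8 (adjusted p = 1.1e-20 and 0.000138). CBX5 (chromosome 12, 54230940 to 54280133, minus strand), which encodes heterochromatin protein 1 alpha, measured 161.3, 165.5, 160.0 and 156.6 CPM across the control libraries and 317.9, 351.8, 319.7 and 338.5 CPM across the knockdown libraries and rose 2.06-fold (log2 fold change 1.05, SE 0.0386, adjusted p = 1.01e-18). CBX6 (chromosome 22, 38861450 to 38872314, minus strand) measured 83.1, 83, 87.8 and 82.6 CPM across the control libraries and 140.9, 144.6, 134 and 149.5 CPM across the knockdown libraries and rose 1.69-fold (log2 fold change 0.76, SE 0.0391, adjusted p = 4.35e-15). CBX7 followed at 0.62, CBX1, heterochromatin protein 1 beta, at 0.41 and CBX3, heterochromatin protein 1 gamma, at 0.27 on the log2 scale. With the neighbours' shift removed CBX5, CBX6, CBX7 and CBX1 were at 0.82, 0.53, 0.29 and 0.19. CBX3, whose neighbours had a median of -0.56, was then at 0.83, so the order of these rises depends on that removal. CBX3 shares 368 bp of exon with HNRNPA2B1, one of the most abundant genes, on the opposite strand. Per kilobase of exon, CBX2 went from 71.5 to 21 CPM per kb and CBX5 from 10.7 to 22.1, so a control ratio of several to 1 became a near equal level. These levels rest on union exon lengths of 5687 bp for CBX2 and 15040 bp for CBX5.

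**Figure D3:**
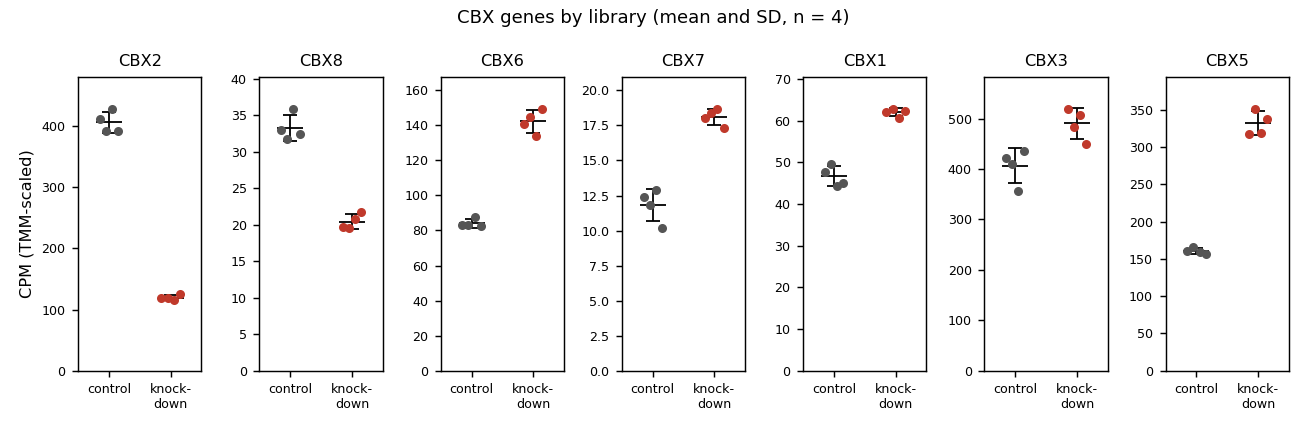
CPM of 7 CBX genes in each library, 4 control and 4 knockdown, with mean and SD; each panel has its own axis from 0. CBX2 and CBX8 are lower in all 4 knockdown libraries, and the other 5 genes are higher.

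Of the 10 CHD remodellers 9 were called, 4 higher and 5 lower, and apart from the low gene CHD5 the changes were under 2-fold. CHD4 (chromosome 12, 6570082 to 6614524, minus strand), the main ATPase of the NuRD complex, measured 604.5, 612.6, 616.1 and 590.2 CPM across the control libraries and 398.7, 426.7, 392.1 and 418.1 CPM across the knockdown libraries. CHD3 (chromosome 17, 7884806 to 7912760, plus strand), the alternative NuRD ATPase, measured 156.4, 155.8, 160.0 and 147.9 CPM across the control libraries and 204.6, 216, 197.6 and 206.5 CPM across the knockdown libraries. The first fell to 67.5% of control (log2 fold change -0.57, SE 0.0317, adjusted p = 5.78e-14) and the second rose 1.33-fold (log2 fold change 0.41, SE 0.0357, adjusted p = 1.74e-10), with no overlap in either. CHD6 (chromosome 20, 41402101 to 41618494, minus strand) measured 34.2, 36.3, 31.4 and 36.3 CPM across the control libraries and 44.4, 49.5, 50.2 and 52.9 CPM across the knockdown libraries and was called higher (log2 fold change 0.51, SE 0.0727, adjusted p = 1.63e-08). CHD7 (chromosome 8, 60678778 to 60868028, plus strand), the gene of CHARGE syndrome, measured 32.7, 37, 31.4 and 34.4 CPM across the control libraries and 22.5, 27.5, 21.1 and 24.8 CPM across the knockdown libraries and was called lower (log2 fold change -0.5, SE 0.0978, adjusted p = 8.01e-06), but with its neighbours' median of -0.4 removed the change was -0.1 (adjusted p = 0.25). CHD8 was lower at -0.43. CHD1 was higher at 0.34 and CHD2 lower at -0.32, and with the neighbours' shift removed they were at -0.12 (adjusted p = 0.118) and 0.23 (adjusted p = 2.93e-05). CHD5, expressed mainly in neurons, had 11, 11, 15 and 7 counts in control and 38, 30, 35 and 31 in knockdown in replicates 1 to 4, and was called higher (log2 fold change 1.58, SE 0.27, adjusted p = 4.21e-06). Low counts limit the precision for CHD5.

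Most SMARC genes encode ATPases or core subunits of the SWI/SNF and ISWI remodellers. Of the 13 genes with SMARC symbols 11 were called, 6 higher and 5 lower, and SMARCAD1 and SMARCAL1 were not called. SMARCA4 (chromosome 19, 10960825 to 11079426, plus strand), the SWI/SNF ATPase also called BRG1, measured 195, 186.6, 191.6 and 180.1 CPM across the control libraries and 107.5, 110.2, 102.6 and 110.1 CPM across the knockdown libraries. It fell to 57.1% of control (log2 fold change -0.81, SE 0.0347, adjusted p = 3.18e-16). Its alternative SMARCA2 was nearly absent in both groups, with 19, 24, 20 and 21 counts in control and 4, 4, 4 and 6 in knockdown, and was called lower too (log2 fold change -2.21, SE 0.175, adjusted p = 5.06e-07). The BAF60 subunits, which link SWI/SNF to transcription factors, moved in opposite directions. SMARCD2 (chromosome 17, 63832081 to 63843065, minus strand) measured 221.3, 218.9, 232.2 and 224.8 CPM across the control libraries and 135.2, 130.5, 135 and 141.2 CPM across the knockdown libraries and fell (log2 fold change -0.73, SE 0.0299, adjusted p = 9.1e-16). SMARCD1 (chromosome 12, 50084972 to 50100712, plus strand) measured 44.8, 46.8, 47.9 and 45.4 CPM across the control libraries and 78.3, 81.6, 73.7 and 82.3 CPM across the knockdown libraries and rose (log2 fold change 0.77, SE 0.0419, adjusted p = 3.69e-14). SMARCD3 (chromosome 7, 151238764 to 151277896, minus strand), the subunit of heart and muscle, measured 2.43, 3.04, 2.94 and 2.28 CPM in the controls, against 11.8, 10.2, 10.9 and 10.5 CPM in the knockdown libraries and rose 4.06-fold (log2 fold change 2.02, SE 0.112, adjusted p = 4.95e-15). None of these overlapped between groups.

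The scaffold subunits SMARCC1 and SMARCC2 also moved in opposite directions, from a control mean of 170.5 ± 5.55 CPM to a knockdown mean of 233.5 ± 6.92 CPM (SD, n = 4 per group) and from a control mean of 112.7 ± 1.06 CPM to a knockdown mean of 74.4 ± 1.82 CPM (SD, n = 4 per group), with log2 fold changes of 0.45 (SE 0.0318) and -0.6 (SE 0.019). SMARCC2 shares 514 bp of exon with the more abundant MYL6 on the opposite strand. SMARCB1, the core subunit lost in rhabdoid tumours, was higher at 0.42. Of the ISWI ATPases, the low gene SMARCA1 had 21, 30, 21 and 29 counts in control and 82, 63, 55 and 53 in knockdown (log2 fold change 1.3, SE 0.163, adjusted p = 4.73e-07), and SMARCA5, the abundant one, was called slightly higher at 0.13 (adjusted p = 0.0116). SMARCAL1, an annealing helicase, was not called at -0.06 (adjusted p = 0.422; 0.02 with library size only).

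Of the 10 ARID genes 6 were called, 5 higher and 1 lower. ARID5A (chromosome 2, 96536743 to 96552638, plus strand), which stabilises inflammatory messenger RNAs, measured 0.733, 0.772, 0.665 and 0.56 CPM in the controls, against 7.95, 7.7, 9.01 and 8.56 CPM in the knockdown libraries. ARID3A (chromosome 19, 925781 to 975934, plus strand), a DNA-binding factor known from B cells and embryonic development, measured 10.9, 9.81, 12.5 and 11 CPM in the controls, against 51, 52.7, 48.8 and 52.5 CPM in the knockdown libraries. The rises were 12.2-fold and 4.65-fold without overlap (log2 fold change 3.59, SE 0.111, adjusted p = 1.38e-17 for ARID5A; log2 fold change 2.22, SE 0.0758, adjusted p = 4.87e-21 for ARID3A). ARID3C, its low relative, had 40, 30, 30 and 37 counts in control and 3, 1, 4 and 2 in knockdown and was called lower (log2 fold change -3.72, SE 0.408, adjusted p = 2.26e-10). ARID2, the targeting subunit of the PBAF form of SWI/SNF, was higher at 0.43, ARID3B at 0.32 and ARID5B at 0.53. For ARID5B the neighbours had a median of 0.64, and with that removed it was at -0.11 and not called (adjusted p = 0.0962). The SWI/SNF targeting subunit ARID1A went from a control mean of 142.2 ± 4.4 CPM to a knockdown mean of 150.5 ± 9.56 CPM (SD, n = 4 per group) and was not called (adjusted p = 0.0749). It was called higher with upper-quartile scaling, with library size only, with a minimum mean of 50 counts and without knockdown replicate 3, at 0.14, 0.17, 0.1 and 0.11. ARID1B, the alternative to ARID1A, went from a control mean of 97.2 ± 3.66 CPM to a knockdown mean of 96.6 ± 4.1 CPM (SD, n = 4 per group) and was not called (log2 fold change -0.01, adjusted p = 0.857). The sign of ARID1B flipped with upper-quartile scaling, library size only and other settings.

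The PRDM genes carry a SET-related domain and zinc fingers, and many act in germ cells or in single lineages. Of the 14, 7 passed the filter and 5 were called, 3 higher and 2 lower. PRDM1 (chromosome 6, 106086320 to 106109939, plus strand), the repressor also called BLIMP1 of plasma cells and epithelia, had 68, 54, 52 and 62 counts in control and 0, 2, 1 and 0 in knockdown in replicates 1 to 4. With every knockdown library at 2 or fewer counts it was at least 17.5-fold lower against the floor of 3 counts per library (adjusted p = 1.65e-13). PRDM11 (chromosome 11, 45095806 to 45235110, plus strand), a transcription factor lost in some B-cell lymphomas, measured 1.19, 0.999, 0.902 and 0.776 CPM in the controls, against 3.83, 4.71, 3.87 and 4.67 CPM in the knockdown libraries and rose 4.42-fold (log2 fold change 2.14, SE 0.151, adjusted p = 1.32e-11). PRDM2, a methyltransferase and tumour suppressor also called RIZ1, measured 27.8, 31.2, 27.3 and 29.2 CPM across the control libraries and 35.2, 38.6, 36.4 and 36.2 CPM across the knockdown libraries (log2 fold change 0.34, SE 0.0515, adjusted p = 2.22e-06). PRDM4 measured 24.7, 27.2, 27.2 and 26.9 CPM across the control libraries and 19, 21, 19 and 19.9 CPM across the knockdown libraries and was called lower (log2 fold change -0.42, SE 0.0476, adjusted p = 2.34e-07). PRDM6, a repressor of smooth muscle, had 4, 1, 3 and 2 counts in control and 16, 15, 15 and 13 in knockdown and was called higher (log2 fold change 2.49, SE 0.362, adjusted p = 3.48e-06). The neighbours of PRDM6 on chromosome 5 had a median of 0.93, and with it removed the change was 1.58 (adjusted p = 0.00138). PRDM10 at 0.06 and PRDM15 at -0.01 were not called (adjusted p = 0.324 and 0.922).

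A further 13 genes did not pass the filter on low counts and were not tested. PRDM13, a factor of the developing nervous system, had 0 to 1 counts in the control libraries and 8 to 10 in knockdown, at least 2.92-fold higher against the floor. PRDM16, a factor of brown fat, had 0 to 4 and 3 to 6 counts, PRDM12 2 to 8 and 3 to 4, and PRDM8 none in control and 0 to 4 in knockdown. PRDM9, the gene that places meiotic recombination, had 0 to 1 and 0 to 3 counts and its near-identical copy PRDM7 had 1 to 4 and 0 to 5, so the reads of the pair are uncertain. SIRT4, a mitochondrial sirtuin, had 4 to 8 and 3 to 11 counts. The pseudogene-type rows CBX3P2, HDAC1P2, SMARCE1P2 and SMARCE1P3 held at most 7 counts in any library. DNMT3L, described above, was also among the 13.

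Many chromatin complexes hold 1 of several interchangeable subunits, so 20 pairs of alternative subunits or close paralogues were compared by their count ratio within each library, which library scaling cannot move. For 17 of the 20 the ratios of the 4 knockdown libraries did not overlap those of the 4 controls (exact two-sided permutation p = 0.0286 each, 0.0336 after Benjamini-Hochberg adjustment over the 20 pairs). Differences between the neighbourhoods of the 2 genes can still move it. Of single genes tested, 72.0% did not overlap between the groups, and of the single chromatin genes 79.2%. These are shares for single genes, and none was computed for ratios of other gene pairs. The largest shift was within SWI/SNF. The log2 ratio of SMARCD1 to SMARCD2 was -2.3, -2.22, -2.28 and -2.31 across the controls and -0.79, -0.68, -0.87 and -0.78 across the knockdown libraries, a difference of 1.5 (SE 0.044). On average that is a 2.83-fold gain of SMARCD1 over SMARCD2, and each knockdown ratio lay above all control ratios. SMARCD3 gained on SMARCD1 by 1.25 (SE 0.11) and SMARCC1 on SMARCC2 by 1.05 (SE 0.034). The difference for SMARCA2 to SMARCA4 was -1.32 (SE 0.18), from few counts, and that for ARID1A to ARID1B was 0.09 (SE 0.057) with overlapping groups (exact two-sided permutation p = 0.2).

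In the other complexes the ISWI ratio of SMARCA1 to SMARCA5 differed by 1.16 (SE 0.16) and the NuRD ratio of CHD3 to CHD4 by 0.98 (SE 0.016). For CHD3 to CHD4 the controls held -1.95, -1.98, -1.94 and -2.0 and the knockdown libraries -0.96, -0.98, -0.99 and -1.02, a spread of a few hundredths within each group. Within Polycomb, CBX6 to CBX7, at 0.13 (SE 0.084), and EZH1 to EZH2, at 0.15 (SE 0.074), overlapped between the groups (exact two-sided permutation p = 0.171 and 0.0571). DNMT3A to DNMT3B differed by -0.76 (SE 0.07), DNMT3B having the larger rise. The heterochromatin pair CBX1 to CBX5 differed by -0.63 (SE 0.037). Of the methyltransferase pairs, KMT2A to KMT2B differed by -0.63 (SE 0.061), KMT2C to KMT2D by -0.5 (SE 0.068) and SETD1A to SETD1B by 0.47 (SE 0.048). Demethylase pairs differed least among those without overlap, with -0.27 (SE 0.046) for KDM6A to KDM6B, -0.24 (SE 0.035) for KDM5A to KDM5B and -0.27 (SE 0.028) for KDM1A to KDM1B. The remaining pairs were CHD1 to CHD2 at 0.66 (SE 0.087) and HDAC1 to HDAC2 at 0.3 (SE 0.08). With the neighbours' medians of both genes subtracted, an alternative chosen after the data were seen, 16 pairs did not overlap and 3 differences turned sign, CHD1 to CHD2 to -0.34, KDM1A to KDM1B to 0.12 and KMT2A to KMT2B to 0.15. KMT2A to KMT2B then overlapped between the groups, as did HDAC1 to HDAC2 at 0.06, whereas EZH1 to EZH2 at 0.39 no longer did. SMARCA1 to SMARCA5 shrank to 0.47 and KMT2C to KMT2D to -0.28, and SMARCD3 to SMARCD1 at 1.49 stood above SMARCD1 to SMARCD2 at 1.08.

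**Figure D4:**
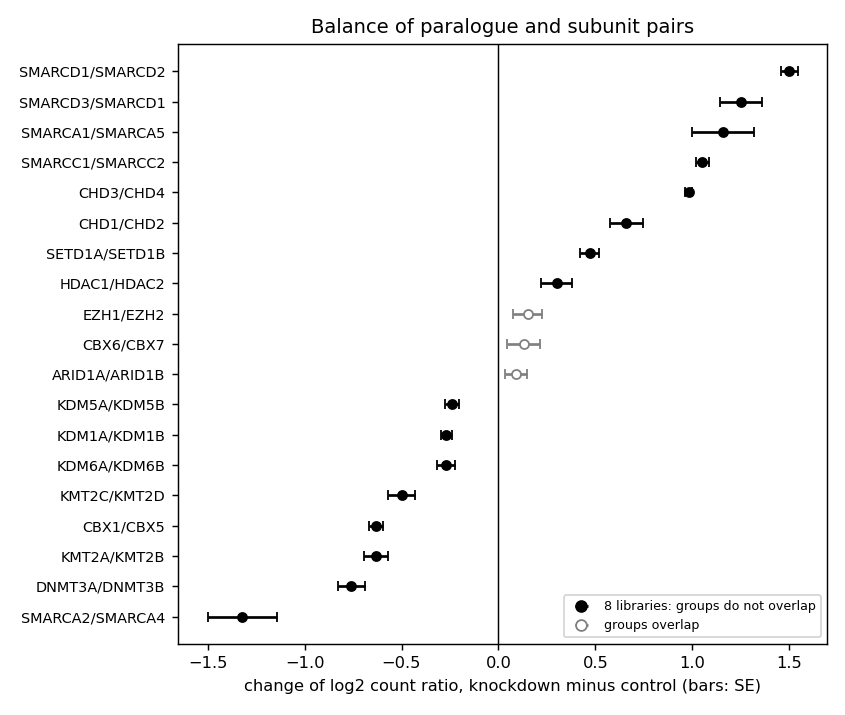
Change of the log2 count ratio of 19 of the pairs, knockdown minus control, with the SE as bars; a positive value means that the first gene gained on the second. Filled points mark the 16 pairs whose ratios did not overlap between the 4 control and 4 knockdown libraries, from SMARCD1/SMARCD2 at 1.5 to SMARCA2/SMARCA4 at -1.32.

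A further list held 113 chromatin genes outside the symbol series, such as complex partners and acetyltransferases. Of 111 tested, 92 (82.9%) were called, 68 higher and 24 lower, with a median log2 fold change of 0.22. Over all genes tested 77.1% were called, 39.4% higher and 37.7% lower, and among those averaging 50 counts or more 82.6%. The partners of Polycomb stood at 16 higher and 2 lower of 20 tested (median 0.37). With the neighbours' shift removed BMI1 and RING1 were called lower, at -0.43 and -0.18, as was PHF1 at -0.41. JARID2, PHC1, PCGF3 and PCGF6 were then not called, and the other genes called higher stayed so. Counts of all sublists are given without that removal. PHF19, a PRC2 cofactor that reads active chromatin, went from a control mean of 0.445 ± 0.0737 CPM to a knockdown mean of 9.75 ± 0.763 CPM (SD, n = 4 per group; log2 fold change 4.44, SE 0.133, adjusted p = 4.25e-19), and PHC3 of PRC1 from a control mean of 109.5 ± 7.66 CPM to a knockdown mean of 64.5 ± 3.36 CPM (SD, n = 4 per group; log2 fold change -0.76, SE 0.0636, adjusted p = 2.06e-12). Singled out after their values were seen, the PRC2 core genes SUZ12, RBBP4 and RBBP7 were higher at 0.65, 0.79 and 0.73, the PRC1 ligase RNF2 at 0.84, and EED was lower at -0.22. With the neighbours' shift removed SUZ12, RBBP4, RBBP7 and RNF2 were at 0.58, 0.44, 0.35 and 1.0. EED was then at 0.03 and not called (adjusted p = 0.648). The other SWI/SNF subunits had 9 higher and 2 lower of 14 (median 0.18). BCL7A went from a control mean of 1.48 ± 0.322 CPM to a knockdown mean of 17.5 ± 0.842 CPM (SD, n = 4 per group; log2 fold change 3.56, SE 0.167, adjusted p = 8.46e-20) and BCL7B from a control mean of 93.6 ± 5.11 CPM to a knockdown mean of 59.9 ± 3.59 CPM (SD, n = 4 per group; log2 fold change -0.64, SE 0.0585, adjusted p = 5.02e-12). PHF10, a PBAF subunit likewise chosen with its value known, went from a control mean of 6.05 ± 0.489 CPM to a knockdown mean of 60.1 ± 1.6 CPM (SD, n = 4 per group; log2 fold change 3.31, SE 0.0593, adjusted p = 1.06e-24).

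The acetyltransferases had 8 higher and 1 lower of 12 (median 0.29), with the steroid receptor coactivators at the ends: NCOA2 was at 1.02 (SE 0.0389) and NCOA3 at -0.38 (SE 0.0395). A list of core subunits and partners from various KMT2 or SETD1 (COMPASS) complexes had 7 higher and 2 lower of 10 (median 0.27), from NCOA6 at -0.4 to PAXIP1 at 0.6. The core subunits WDR5, ASH2L, RBBP5 and DPY30 were at 0.18, 0.45, 0.08 (not called) and 0.28. Other lysine methyltransferases had 9 higher and 4 lower of 14 (median 0.5). SMYD3, a methyltransferase of the MAP kinase pathway, went from a control mean of 2.21 ± 0.326 CPM to a knockdown mean of 15 ± 1.64 CPM (SD, n = 4 per group; log2 fold change 2.76, SE 0.13, adjusted p = 2.29e-17), and SETDB2, a relative of the heterochromatin enzyme SETDB1, from a control mean of 9.53 ± 0.585 CPM to a knockdown mean of 4.25 ± 0.43 CPM (SD, n = 4 per group; log2 fold change -1.17, SE 0.0856, adjusted p = 4.94e-11). The NuRD, CoREST and NCOR partners were divided, with 7 higher and 5 lower of 15 (median 0.01). RCOR2 of CoREST went from a control mean of 5.73 ± 0.66 CPM to a knockdown mean of 21 ± 1.62 CPM (SD, n = 4 per group; log2 fold change 1.88, SE 0.101, adjusted p = 1.63e-16), and MBD3 of NuRD was at -0.51. Among readers 5 were higher and 6 lower of 13 (median 0.03), from UHRF1 at -1.03 to BRD8 at 1.29; BRD8 shares 132 bp of exon with KIF20A on the opposite strand. Other remodellers had 7 higher and 2 lower of 13 (median 0.16), with the INO80 and TIP60 helicase RUVBL1 at 0.86 and RSF1, partner of SMARCA5, at -0.54. RUVBL1 shares 344 bp of exon with the more abundant SEC61A1 on the opposite strand.

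To see each gene against its surroundings on the chromosome, it was also set beside the 50 tested protein-coding genes nearest to it. The neighbours' median log2 fold change ran from -0.56, around CBX3, to 0.93, around PRDM6, and was beyond 0.3 in either direction for 34 of the 106 genes. With that median taken out, 89 of the 106 were called, against 75.6% of all genes. Of the 91 calls 9 were lost, in ARID5B, CHD1, CHD7, HDAC9, SIRT5, SIRT6, KMT2A, KDM4C and KDM6B, and 7 genes were called anew, ARID1B, ARID4B, CHD1L, PRDM10, KMT2D, SETD2 and KDM6A. Another 8 were called in the opposite direction: CHD2 from -0.32 to 0.23, DNMT1 from -0.11 to 0.17, SMARCE1 from -0.1 to 0.19, SIRT3 from -0.22 to 0.3, KMT2B from 0.34 to -0.22, KMT5B from -0.21 to 0.31, KDM2A from -0.19 to 0.33 and KDM5C from 0.1 to -0.4 on the log2 scale. Among the genes given with their values in every library, the change moved by over 1.5 times in CHD3 from 0.41 to 0.26, SMARCD1 from 0.77 to 0.49, KDM1B from 0.81 to 0.45, KDM4B from -0.68 to -0.43 and HDAC1 from 0.62 to 0.22. Among others, the changes of DNMT3A, DNMT3B, TET1, ARID3A, ARID5A, KDM7A, HDAC11, SIRT2, SETD3 and SMARCD3 lay outside the range of all the neighbours' medians. These genes were picked for large changes, and a median of 50 genes varies less than a single gene. No conclusion is drawn from that comparison. What sets the regional shift was not tested.

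**Figure D5:**
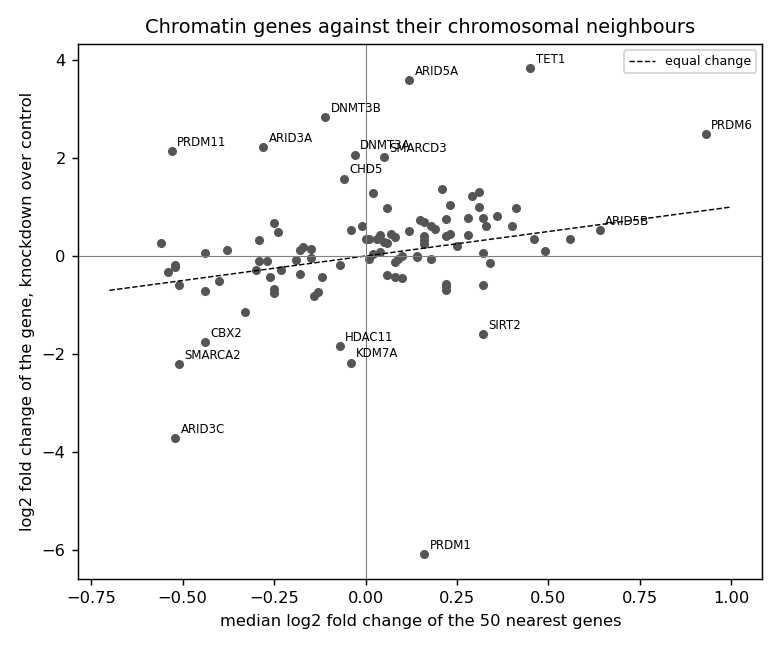
Log2 fold change of 105 of the chromatin genes tested against the median log2 fold change of its 50 nearest tested protein-coding genes; each point is a gene and the dashed line marks equal change. Neighbour medians run from -0.56 to 0.93, and named points such as TET1, DNMT3B, KDM7A and PRDM1 lie far from the line.

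Some small changes near the threshold depended on single libraries. In all, 4 genes missed the threshold with all 8 libraries and were called lower without control replicate 3, the library that stood apart: the corepressor genes ARID4A (-0.26, adjusted p = 0.00167) and ARID4B (-0.19, adjusted p = 0.0027), the remodeller SMARCAD1 (-0.16, adjusted p = 0.000937) and the methyltransferase SETD2 of transcribed genes (-0.1, adjusted p = 0.0232). ARID4B was also called at -0.19 without knockdown replicate 2, and the nucleolar sirtuin SIRT7 at -0.13 without control replicate 2 (adjusted p = 0.0189). SETD1B, called at -0.13, was -0.13 without control replicate 1 (adjusted p = 0.0555), -0.1 without control replicate 3 (adjusted p = 0.0699), -0.12 without knockdown replicate 1 (adjusted p = 0.0676) and -0.09 without knockdown replicate 3 (adjusted p = 0.131). The class IIa deacetylase HDAC9, called at -0.75 on 5 to 22 counts per library, was -0.64 without control replicate 3 (adjusted p = 0.0972), -0.6 without control replicate 4 (adjusted p = 0.12), -0.71 without knockdown replicate 2 (adjusted p = 0.0754) and -0.54 without knockdown replicate 4 (adjusted p = 0.13). The remodeller CHD9, called at -0.38, was -0.35 without knockdown replicate 1 (adjusted p = 0.0632) and -0.34 without knockdown replicate 4 (adjusted p = 0.0582). SMARCE1, a SWI/SNF subunit called at -0.1, was -0.09 without control replicate 2 (adjusted p = 0.0509), -0.08 without control replicate 4 (adjusted p = 0.0654), -0.08 without knockdown replicate 2 (adjusted p = 0.0546) and -0.08 without knockdown replicate 4 (adjusted p = 0.071). KDM5C, an X-linked demethylase called at 0.1, was 0.09 without control replicate 1 (adjusted p = 0.0617), 0.09 without control replicate 2 (adjusted p = 0.0505), 0.07 without control replicate 4 (adjusted p = 0.0885) and 0.08 without knockdown replicate 2 (adjusted p = 0.0557). KDM4A, called at 0.12, was 0.09 without control replicate 4 (adjusted p = 0.0637), and SIRT5, called at 0.21, was 0.16 without control replicate 1 (adjusted p = 0.0534). SETD4, called at 0.15, missed the threshold with DESeq2 (adjusted p = 0.0592), and the helicase gene CHD1L was not called at -0.04. Without control replicate 3, 93 of the chromatin genes were called, 89 of them among the 91 calls with all libraries, and 76.5% of all genes.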

How the data were processed

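RNA was measured in 8 SKBR3 libraries, extracted with Trizol and sequenced as paired-end reads on a NextSeq instrument, per the labels' protocols. The table the authors deposited holds whole-number counts by Ensembl identifier, beside a symbol column. FastQC, Salmon 1.9, DESeq2 3.16 and hg38 are named in the submitters' processing notes, with no role or order; the annotation release, the use of strand and the step that gave whole numbers are not given in the sources used here, so reads of overlapping or near-identical genes may have been shared out. Columns were matched to samples by name and groups to titles. Positions and exon lengths come from GENCODE 29 on GRCh38 by Ensembl identifier (96.5% of identifiers, all 119 chromatin genes), promoters from RefSeq on GRCh38.p14.

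Tests were run in R 4.3.3 with edgeR 4.0.16: filterByExpr (minimum 10 counts, total 15), TMM factors of 0.965 to 1.04, glmQLFit with robust estimation, glmQLFTest, and Benjamini-Hochberg adjustment over all 16430 genes tested, threshold 0.05. The coefficient of variation that edgeR fitted between libraries was 4.56%. Standard errors come from the spread of log2 CPM with 0.5 added to each count. A floor of 3 counts, 0.126 to 0.157 CPM before scaling, covers counting error only. On simulated counts of 16430 genes, 51 of 66 changes of 0.5, 62 of 67 of 1 and 66 of 67 of 2 on the log2 scale were called with the right sign, beside 3 false calls. Only 200 genes were changed there, and all genes shared 1 dispersion, whereas 77.1% of genes were called in the data. The simulation therefore cannot give the error rate of these data or test their scaling. Alternatives were 3 other scalings (RLE, upper quartile, library size), no filter or a minimum mean of 50 counts, DESeq2 1.42.0, limma 3.58.1 voom, a replicate block, removal of the neighbours' shift, and each library left out. Genes given in every library are the 2 largest rises and falls of each role that were called, averaged 50 counts or more and separated the groups fully, plus DNMT1, EZH2, HDAC1, SMARCA4 and KMT2C; others so given were singled out after their values were seen. In each partner sublist the largest rise and fall under the same conditions are given. Results of 2 of the 119 genes are not reported here, nor shown in the figures, though the counts over lists include them. The genes and lists were chosen with earlier results of these data known. Ratios and permutations used Python 3.11.15 and scipy 1.17.1.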

Additional observations from a re-analysis of the deposited data

Results flagged for a closer look

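For each chromatin gene, the library farthest from the rest of its group of 4 was examined with Dixon's gap-to-range ratio at the 95% critical value. Among 212 groups 7 libraries passed it, and about 10.6 would pass by chance. KMT2E was low in control replicate 3, at 79.7 CPM against 92.4 to 94.6 CPM in the others. ARID4A was low in knockdown replicate 4, at 13.1 CPM against 15.5 to 15.9 CPM in the others. ARID4B was low in control replicate 3, at 42.2 CPM against 48.7 to 49.9 CPM in the others. PRDM4 was low in control replicate 1, at 24.7 CPM against 26.9 to 27.2 CPM in the others. SMARCA5 was low in knockdown replicate 4, at 124.6 CPM against 134.5 to 135.6 CPM in the others. CHD1 was low in control replicate 3, at 39 CPM against 48.8 to 48.9 CPM in the others. CBX6 was high in control replicate 3, at 87.8 CPM against 82.6 to 83.1 CPM in the others. Control replicate 3 accounts for 4 of the 7.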

How the results depend on the processing

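Over the 17 alternatives the count of chromatin genes called ran from 85 to 98 (91 in the main test), higher from 55 to 62 and lower from 28 to 36, that of the partner list from 89 to 96 (92) and that of all genes from 10279 to 15028 (12675), each within 1.5 times. Of the 106 tested chromatin genes 71 kept direction and side of the threshold in every alternative.  Log2 fold changes with the opposite sign were, with the neighbours' shift removed, SMARCE1 at 0.19, SIRT6 at 0.02, KMT5B at 0.31, SIRT5 at -0.04, KDM5C at -0.4, DNMT1 at 0.17, CHD1L at 0.11, SIRT3 at 0.3, ARID5B at -0.11, CHD1 at -0.12, KMT2D at -0.25, KDM2A at 0.33, CHD2 at 0.23, SIRT7 at 0.1 and KMT2B at -0.22; with upper-quartile scaling, ARID1B at 0.05, CHD1L at 0.02, PRDM15 at 0.05, KDM6A at 0.03, SMARCAD1 at 0.0 and SETD2 at 0.0; with library size only, ARID1B at 0.08, CHD1L at 0.05, SMARCAL1 at 0.02, PRDM15 at 0.08, KDM6A at 0.05, SMARCAD1 at 0.03 and SETD2 at 0.02; and with a minimum mean of 50 counts, ARID1B at 0.01 and PRDM15 at 0.01. Leaving out single libraries left ARID1B between -0.04 and 0.02, PRDM15 between -0.06 and 0.03 and KDM6A between -0.07 and 0.00. Upper-quartile scaling moved the median of all genes by 0.06 and library size only by 0.08, which the construction of those scalings sets; otherwise the cause was not tested. Same-numbered control and knockdown libraries did not deviate together (correlations from -0.0307 to 0.0563), so the numbers were not taken as pairs. With a replicate block 90 chromatin genes, 91 partners and 12453 genes in all were called. In 19 of 20 subunit pairs all same-numbered differences had 1 sign, a looser criterion than groups without overlap. The neighbours' shift removed from the pair ratios, an added alternative, left 16 pairs without overlap. Without single libraries 17 to 18 pairs, and with 5 added to each count 17, did not overlap. Genes with few counts, among them HDAC9, CHD5, SMARCA2, PRDM6 and ARID3C, are limited by depth.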

Other observations

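Levels of the tested chromatin genes can be set side by side per kilobase of GENCODE 29 exon, in an order that depends on these union lengths. Among the highest in control were CBX3 at 87.5 CPM per kb, CBX2 at 71.5 CPM per kb, SMARCD2 at 60.1 CPM per kb and CHD4 at 47.7 CPM per kb. Among the highest in knockdown were CBX3 at 105.6 CPM per kb, HDAC1 at 40.8 CPM per kb, SMARCD2 at 36.3 CPM per kb and CHD4 at 32.2 CPM per kb. CBX2, among the leading genes of control, stood at 21 CPM per kb in knockdown, and HDAC1 at 26.6 in control. KDM5C and KDM1A, at 28.6 and 24.6 in knockdown, were the demethylases with the highest levels.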
